A study of Arabidopsis thaliana with 12 samples.

Results

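A set of 66 *Arabidopsis* genes was raised in *bli* seedlings and stayed raised when either *IRE1A* or *IRE1B* was also mutated. The genes were chosen from 33557 by their mean FPKM (fragments scaled by transcript length and by the mapped fragments of the library) in each genotype. The *bli* mean was at least 2 FPKM, the means of *bli ire1a*, *bli ire1b* and *bli* were each at least 2 times the WT mean, both double-mutant means were at least 0.75 times the *bli* mean, and all 9 mutant libraries lay above all 3 WT libraries. This last condition alone was met by 1998 of 20645 genes with a mean of at least 0.5 FPKM (9.68%), and all 66 genes are among these. Because the same values chose the genes, their levels against WT and against *bli* are described here without a test.

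Whole seedlings of 4 genotypes were profiled, with 3 libraries each and 12 in all. A T-DNA insertion in *BLI* (the *bli-1* line SAIL_107_D04) was combined with an insertion in *IRE1A* (SALK_018112) in *bli ire1a* and with one in *IRE1B* (SAIL_238_F07) in *bli ire1b*. The single mutant *bli* carried only the *bli-1* insertion, and WT none. All plants were labelled as of the Columbia strain and as seedlings of day 12, with no treatment listed, and each mutation was represented by 1 insertion line. No *ire1a* or *ire1b* mutant without the *bli* insertion was sequenced, so that the effect of either *IRE1* mutation on its own cannot be told apart from its effect in *bli*.

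*BLI* (BLISTER) is known as a protein that interacts with the Polycomb group machinery, which keeps developmental genes silent, and as a regulator of stress-responsive genes. IRE1A and IRE1B sit in the membrane of the endoplasmic reticulum (ER), sense unfolded proteins and splice the mRNA of the transcription factor bZIP60, which switches on chaperone genes in the unfolded protein response (UPR). The study asked how far the changes in *bli* depend on each IRE1 protein, and the 66 genes are those in which neither *IRE1* mutation took the mean below 0.75 times its level in *bli*.

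Each mutated gene was lower in the genotypes labelled as carrying its insertion. *BLI* averaged 10.6 ± 2.49 FPKM in *bli ire1a*, 10.8 ± 1.04 in *bli ire1b*, 10.9 ± 0.915 in *bli* and 17.3 ± 0.435 in WT (SD, n = 3 each). *IRE1A* averaged 5.23 FPKM in *bli ire1a* against 15.5 in WT, and *IRE1B* 4.91 FPKM in *bli ire1b* against 9.80 in WT. Fragments of each gene were still counted where it was mutated. Total FPKM was 972215 to 1098800 per library. The summed FPKM of 5 green-shoot markers was 53696 to 60474 in *bli ire1a*, 47153 to 50865 in *bli ire1b*, 47182 to 51655 in *bli* and 69685 to 74826 in WT. That of 6 root markers was 66.0 to 101 in *bli ire1a*, 45.6 to 67.2 in *bli ire1b*, 66.5 to 103 in *bli* and 85 to 109 in WT, and no marker of either list was at 0 in every library. These sums moved with genotype, their part in the levels below was not tested, and in bulk RNA fewer cells of a type and less RNA per cell cannot be told apart.

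The 250 bases upstream of the annotated start of each gene were read from the RefSeq TAIR10.1 genome and searched on both strands for 9 short motifs. The W-box core TTGAC, the sequence bound by WRKY factors of the immune response, was in 5 of the 6 protein kinase genes of the set, and 4 of the 8 carbon and sugar genes held TTATCC, an element named for promoters of sugar-repressed genes and added to the search after the set was seen. The W-box was in 6 of the 11 defence genes and TTATCC in 2. Among the 11 cell wall and secreted genes they were in 3 and 1. Roles were assigned by hand after the genes were seen, and these counts are a few of those over all motifs and roles. Over all 66 genes the W-box was in 50.0%, against 45.1% of 20465 tested genes with an upstream sequence, and TTATCC in 18.2% against 13.1%. Among 838 *bli*-induced genes the shares were 52.5% for the W-box and 14.7% for TTATCC. The windows of 3 kinase genes, of the stress gene *SAG21* and of the most strongly expressed carbon genes are printed here, 5′ to 3′ on the strand of the gene, with the motif on either strand in capitals (TTGAC or GTCAA in the W-box windows, TTATCC or GGATAA in the others).
FRK1 (AT2G19190, W-box), chr2:8329945-8330194, minus strand: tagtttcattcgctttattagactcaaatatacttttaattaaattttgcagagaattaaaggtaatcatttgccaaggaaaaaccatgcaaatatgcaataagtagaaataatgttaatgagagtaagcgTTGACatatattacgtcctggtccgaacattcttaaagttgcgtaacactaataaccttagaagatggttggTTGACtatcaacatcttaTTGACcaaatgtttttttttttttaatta
IOS1 (AT1G51800, W-box), chr1:19213822-19214071, plus strand: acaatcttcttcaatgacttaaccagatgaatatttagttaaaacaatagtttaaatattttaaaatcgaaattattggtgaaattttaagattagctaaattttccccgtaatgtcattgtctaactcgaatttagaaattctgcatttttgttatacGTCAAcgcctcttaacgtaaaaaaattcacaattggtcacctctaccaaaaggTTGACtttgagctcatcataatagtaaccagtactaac
AT1G51850 (W-box), chr1:19256928-19257177, minus strand: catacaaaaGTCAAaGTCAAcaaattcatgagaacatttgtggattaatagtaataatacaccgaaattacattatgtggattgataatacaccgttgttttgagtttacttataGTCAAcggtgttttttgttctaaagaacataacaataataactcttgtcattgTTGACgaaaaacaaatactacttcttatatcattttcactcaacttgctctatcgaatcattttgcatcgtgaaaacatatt
SAG21 (AT4G02380, W-box), chr4:1047106-1047355, minus strand: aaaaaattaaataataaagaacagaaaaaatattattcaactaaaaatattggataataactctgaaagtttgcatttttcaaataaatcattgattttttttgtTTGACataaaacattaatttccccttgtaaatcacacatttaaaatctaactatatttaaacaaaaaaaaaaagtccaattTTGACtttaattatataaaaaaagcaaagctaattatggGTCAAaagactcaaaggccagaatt
AT2G33830 (TTATCC), chr2:14310609-14310858, minus strand: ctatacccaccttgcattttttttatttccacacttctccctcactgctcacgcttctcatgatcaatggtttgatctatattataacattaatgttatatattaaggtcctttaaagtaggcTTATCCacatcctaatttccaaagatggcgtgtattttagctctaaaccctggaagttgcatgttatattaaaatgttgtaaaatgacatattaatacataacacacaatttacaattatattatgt
AT3G15450 (TTATCC), chr3:5212734-5212983, plus strand: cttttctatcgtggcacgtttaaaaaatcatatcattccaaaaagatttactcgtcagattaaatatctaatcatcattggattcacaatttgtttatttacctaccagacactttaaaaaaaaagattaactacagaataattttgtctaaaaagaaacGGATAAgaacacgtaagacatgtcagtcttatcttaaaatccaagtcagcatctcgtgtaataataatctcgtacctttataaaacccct
No other annotated gene lay in these 6 windows. There were 3 W-box cores in the *FRK1* window, 2 in that of *IOS1*, 4 in that of AT1G51850 and 3 in that of *SAG21*. TTATCC or its complement occurred as 1 match in each of the last pair.

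The promoter elements of the UPR were also counted. The ERSE-I element was in 0 of 66 windows, against 0.870% of tested genes and 1.79% of *bli*-induced genes. The UPRE core TGACGTG was in 5 (7.58%), against 3.27% and 5.97%. The telomeric-repeat motif AAACCCTA was in 6 windows (9.09%, against 3.55% of tested and 2.98% of *bli*-induced genes). Shares close to those of all tested genes were found for ACGTG, which many abscisic acid-responsive promoters hold (25.8% against 23.8%, and 32.7% of *bli*-induced genes), for the GAGAGA repeat (19.7% against 19.4%) and for the heat shock element GAANNTTC (10.6% against 9.35%). The G-box CACGTG was in 4.55% against 7.29%. A match describes these letters only, and the motifs overlap, since TGACGTG and CACGTG both contain ACGTG.

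Across the set, the median ratio to the WT mean was 2.39 for *bli ire1a*, 2.81 for *bli ire1b* and 2.73 for *bli*, over the 65 genes with a WT mean above 0. WT means ran from 0 to 358 FPKM, with a median of 8.69 FPKM. On the scale of log2(FPKM + 0.1), the median difference from WT over the 66 genes was 1.26 for *bli ire1a*, 1.48 for *bli ire1b* and 1.47 for *bli*, where the median over all tested genes was 0.01, 0.00 and -0.01. These 3 comparisons share the WT libraries. Libraries of a genotype differed over these genes: *bli ire1a* replicate 1 was the highest of its genotype for 46 of 66, *bli* replicate 1 the lowest for 44, and WT replicate 3 the highest for 30. The shares over all tested genes were not computed, so these counts are not read as a trait of the set.

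**Figure D1:**
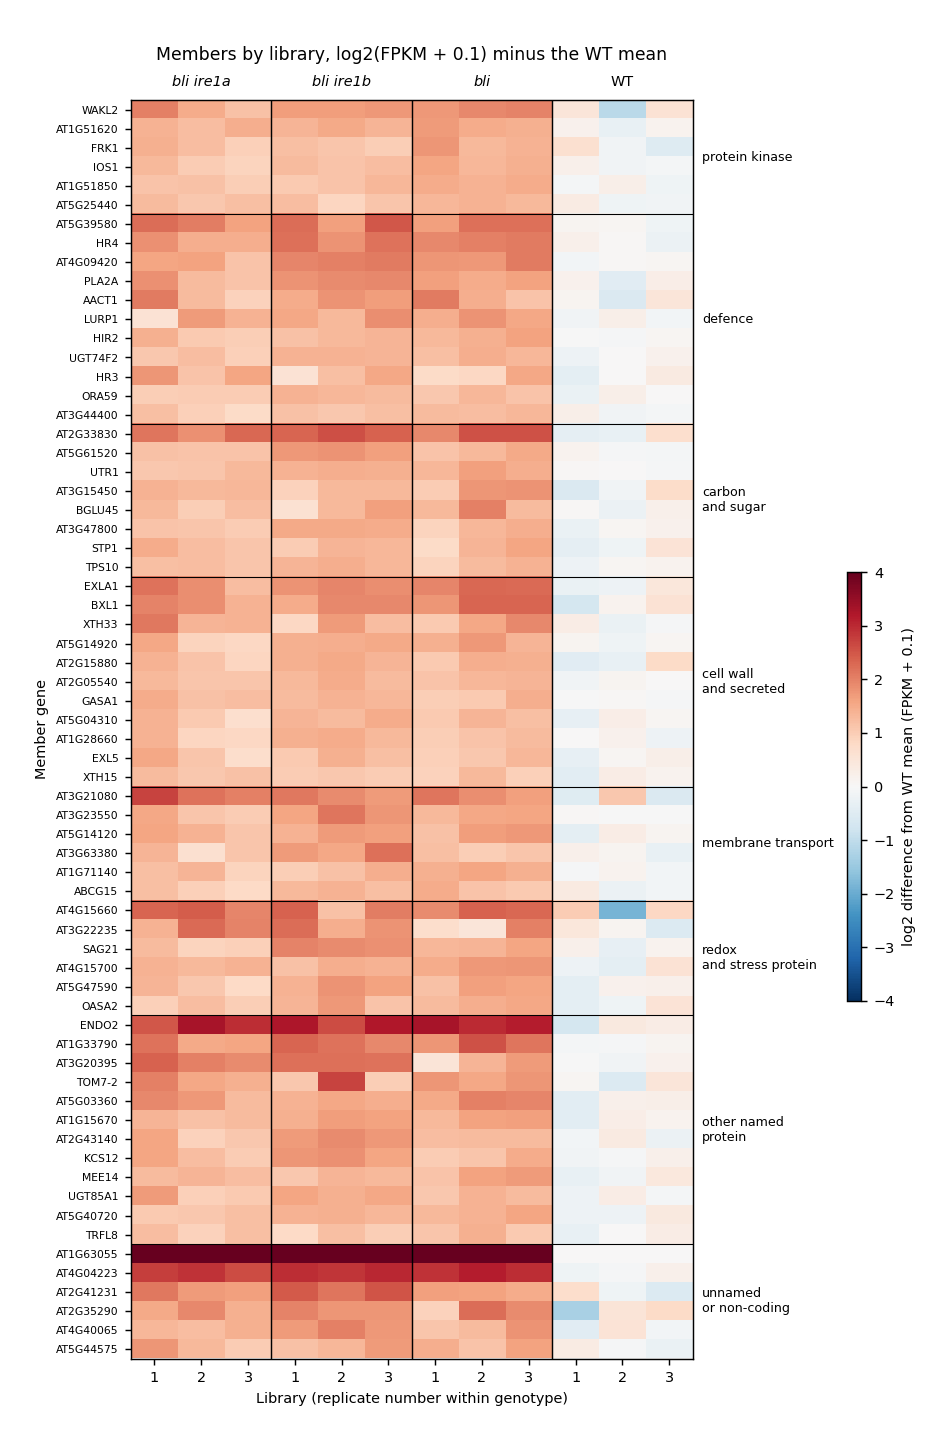
Each row is 1 of the 66 genes, grouped by role, and each column is 1 library, in the order *bli ire1a*, *bli ire1b*, *bli* and WT. Colour gives log2(FPKM + 0.1) minus the WT mean of the gene, with the scale ending at 4, which AT1G63055 exceeds in its mutant means. The 9 mutant columns are red for nearly every gene, and *bli ire1a* replicate 1 is the darkest of its genotype for 46 genes.

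The 6 protein kinase genes of the set include receptor-like kinases of immunity. *FRK1*, a receptor-like kinase gene used as a marker of the response to bacterial flagellin, had 13.1, 11.4 and 9.44 FPKM in *bli ire1a*, 11.2, 10.5 and 9.70 in *bli ire1b*, 16.7, 12.1 and 12.9 in *bli*, and 7.6, 4.38 and 3.34 in WT. Its WT libraries were spread more widely than its *bli ire1b* libraries, with WT replicate 1 the nearest to the mutants. *IOS1*, a malectin-like leucine-rich repeat kinase of pattern-triggered immunity, had 34.6, 28.8 and 26.1 FPKM in *bli ire1a*, 33.6, 30.9 and 33.6 in *bli ire1b*, 42.3, 35.7 and 37.9 in *bli*, and 16.3, 12.9 and 13.3 in WT. AT1G51850, a leucine-rich repeat kinase gene with 4 tested genes between it and *IOS1* on chromosome 1, had 14.8, 15.1 and 13.2 FPKM in *bli ire1a*, 14, 14.8 and 16.9 in *bli ire1b*, 18.7, 17.5 and 18.7 in *bli*, and 6.37, 7.90 and 5.90 in WT. For both of these genes every double-mutant library lay between the WT and the *bli* libraries. The same held for AT5G25440, which averaged 14.5 ± 0.961, 13.4 ± 1.74, 16.1 ± 0.510 and 6.39 ± 1.3 FPKM in *bli ire1a*, *bli ire1b*, *bli* and WT (SD, n = 3 each). AT1G51620 and *WAKL2*, a wall-associated kinase-like gene, were weakly expressed, with *bli* means of 2.91 and 6.21 FPKM. All 6 kinase genes had lower means in both double mutants than in *bli*: the median share of the *bli* mean kept was 81.3% by *bli ire1a* and 83.9% by *bli ire1b*. *WAKL2* overlaps its neighbour *WAKL1* on the same strand over 160 bases, and *FRK1* overlaps AT2G19180 on the opposite strand over 175 bases, so reads in these stretches may be assigned to either gene.

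The 11 other defence genes were spread over several layers of the immune response. *HR4*, a homolog of the RPW8 powdery mildew resistance genes, had 174, 133 and 134 FPKM in *bli ire1a*, 226, 169 and 219.9 in *bli ire1b*, 183, 196 and 204 in *bli*, and 56.5, 49.7 and 40.9 in WT. Its mean was 3.0, 4.18 and 3.97 times that of WT in *bli ire1a*, *bli ire1b* and *bli*, and *bli ire1b* replicate 2 lay within the range of *bli ire1a*. The neighbouring *HR3*, 2524 bases away on the same strand of chromosome 3, averaged 5.37 ± 1.17, 4.18 ± 1.36, 3.98 ± 1.32 and 1.86 ± 0.505 FPKM in the same order, and its mean was higher in *bli ire1a* than in *bli*, with overlapping libraries. AT5G39580, a class III peroxidase gene, had 34.0, 29.7 and 22.1 FPKM in *bli ire1a*, 33.8, 22.7 and 40.4 in *bli ire1b*, 22.4, 33.3 and 33.2 in *bli*, and 7.68, 7.56 and 6.38 in WT. Its mutant libraries overlapped and stood 3.97 to 4.48 times above WT by their means. *HIR2*, whose family takes part in the hypersensitive reaction, was among the 10 most strongly expressed members, with 223 to 297, 250.5 to 284, 272 to 341 and 107 to 117 FPKM in *bli ire1a*, *bli ire1b*, *bli* and WT. It overlaps *VDAC1* on the opposite strand over 387 bases.

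The remaining defence genes were raised to a similar extent. *ORA59*, which joins the jasmonate and ethylene signals, averaged 12.2 ± 0.152, 15.1 ± 0.661, 13.7 ± 1.27 and 6.05 ± 1.05 FPKM in *bli ire1a*, *bli ire1b*, *bli* and WT (SD, n = 3 each). *UGT74F2*, which attaches glucose to salicylic acid, averaged 67.9 ± 6.45, 83.1 ± 1.32, 80.4 ± 7.25 and 32.1 ± 4.34 FPKM in that order. *PLA2A*, a patatin-type phospholipase of the response to pathogens, *LURP1*, a gene of the response to an oomycete, *AACT1*, and the TIR-type resistance genes AT3G44400 and AT4G09420 complete the group. Over the 11 genes the ratio to the WT mean was 2.01 to 3.97 in *bli ire1a*, 2.25 to 4.48 in *bli ire1b* and 2.15 to 4.11 in *bli*. *LURP1* had 25.6, 56.5 and 44.9 FPKM in *bli ire1a*, where replicate 1, the highest of its genotype for most members, was the lowest.

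Genes of carbon and sugar use held some of the highest levels of the set. AT2G33830, a dormancy- and auxin-associated gene, had 721, 578 and 792 FPKM in *bli ire1a*, 813, 965 and 825 in *bli ire1b*, 609, 958 and 951 in *bli*, and 126, 132 and 258 in WT. Its mean was 4.06, 5.05 and 4.88 times the WT mean in *bli ire1a*, *bli ire1b* and *bli*, and the mutant genotypes overlapped. AT3G15450, annotated as an aluminum-induced protein, had 871, 824 and 835 FPKM in *bli ire1a*, 631, 820.0 and 818 in *bli ire1b*, 675, 1141 and 1156 in *bli*, and 225, 299 and 551 in WT. WT replicate 3 was the highest WT library for 6 of the 8 carbon and sugar genes and *bli* replicate 1 the lowest *bli* library for 7, so that the distance between mutant and WT libraries depended on the libraries compared. For these counts too, the shares over all tested genes were not computed. *STP1*, a hexose transporter of the plasma membrane, had 149, 126 and 113 FPKM in *bli ire1a*, 107, 135 and 134 in *bli ire1b*, 89.1, 136 and 159.6 in *bli*, and 41.3, 46.6 and 76.6 in WT. *TPS10*, of the class of trehalose-phosphate synthase-like proteins, averaged 57.5 ± 2.71, 65.8 ± 3.32, 57.8 ± 10 and 25.3 ± 3.08 FPKM (SD, n = 3 each). *UTR1*, a nucleotide sugar transporter of the ER, averaged 22 ± 1.85, 26.1 ± 0.518, 27.2 ± 3.11 and 9.72 ± 0.360 FPKM in the same order of genotypes.

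**Figure D2:**
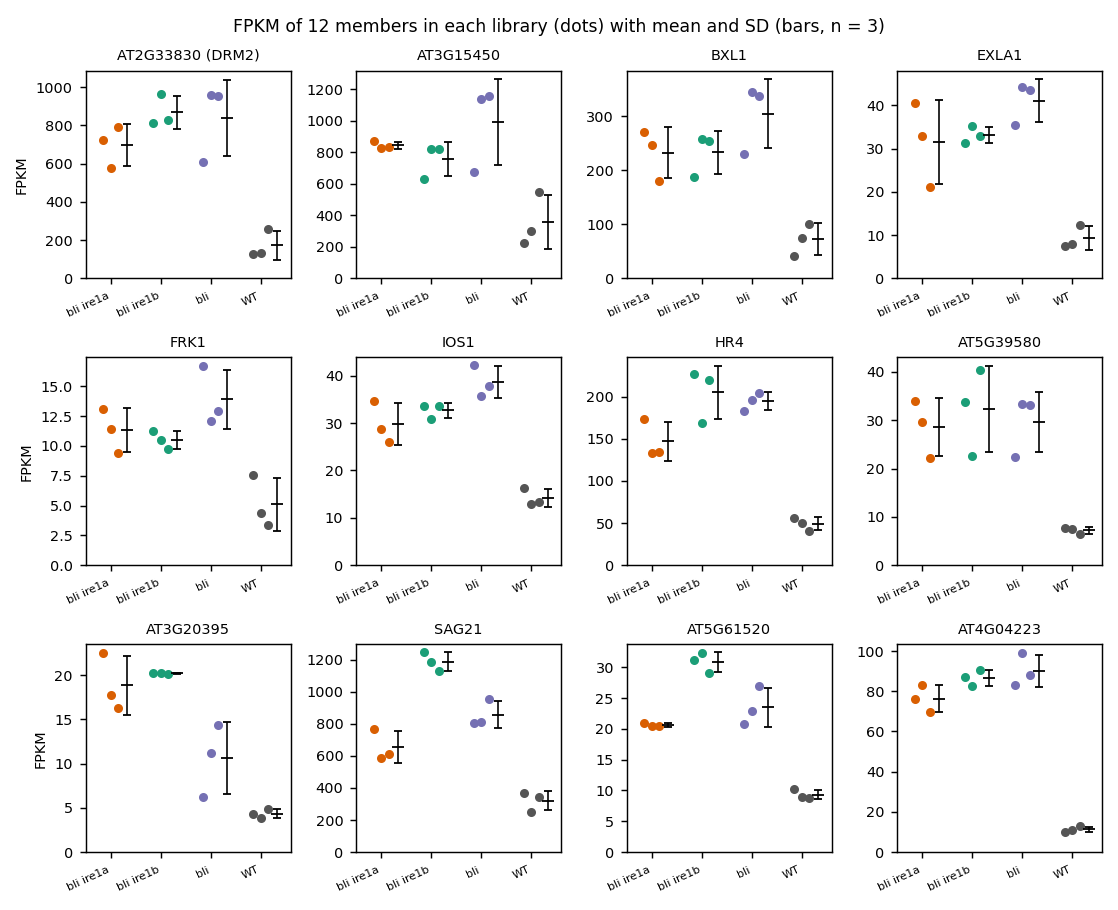
FPKM of 12 of the genes in each library, with dots for single libraries and bars for the mean ± SD of each genotype (n = 3), every axis starting at 0. All mutant dots lie above all WT dots, as the choice of the genes requires. For *SAG21* and AT5G61520 the *bli ire1a* dots lie below all *bli ire1b* dots, and AT3G20395 is higher in both double mutants than in *bli*.

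The 11 genes of the cell wall and of small secreted proteins included enzymes that loosen or trim the wall. *BXL1*, a beta-xylosidase of the wall, had 270, 247 and 179 FPKM in *bli ire1a*, 188, 257 and 255 in *bli ire1b*, 231, 344 and 338 in *bli*, and 41.6, 74 and 101 in WT. *EXLA1*, an expansin-like gene, had 40.6, 32.8 and 21.1 FPKM in *bli ire1a*, 31.4, 35.1 and 32.9 in *bli ire1b*, 35.3, 44.3 and 43.5 in *bli*, and 7.44, 7.88 and 12.4 in WT. In both genes the means of the double mutants were 76.3% to 80.7% of the *bli* mean, and the libraries of *bli ire1a* overlapped those of *bli*. The gibberellin-regulated genes *GASA1*, which encodes a small cysteine-rich peptide, and AT5G14920 were among the most strongly expressed members. *GASA1* averaged 361 ± 43.4, 368 ± 14.2, 329 ± 59.1 and 146 ± 4.28 FPKM in *bli ire1a*, *bli ire1b*, *bli* and WT, and AT5G14920 298 ± 86.1, 379 ± 12.9, 393 ± 56.2 and 138 ± 15.1 FPKM (SD, n = 3 each). *XTH15* and *XTH33*, of the family that cuts and rejoins xyloglucan, were higher in *bli ire1a* than in *bli* by their means, 19.4 against 18.1 FPKM and 5.77 against 5.32 FPKM, differences smaller than the SD of 2.79 and 1.59 FPKM in *bli*. AT2G15880, a leucine-rich repeat gene, lies 50 bases from *MEE14* on the same strand of chromosome 2. It averaged 29.1 ± 5.34, 35.7 ± 2.32, 32.7 ± 4.91 and 14.2 ± 7.05 FPKM, and *MEE14*, a gene named for arrest of the embryo, 259 ± 9.55, 253 ± 24.8, 299 ± 59.1 and 108 ± 28.7 FPKM. WT replicate 3 was the highest WT library for both neighbours, with 22.3 and 141 FPKM.

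Membrane transport was represented by 6 genes. The MATE efflux genes AT3G23550 and AT1G71140 averaged 26.9 ± 5.52 and 6.83 ± 1.06 FPKM in *bli ire1a*, 40.8 ± 8.04 and 7.09 ± 1.20 in *bli ire1b*, 31.5 ± 3.13 and 8.52 ± 0.492 in *bli*, and 11.3 ± 0.345 and 3.0 ± 0.284 in WT (SD, n = 3 each). AT5G14120, of the major facilitator family, was the most strongly expressed transporter gene, with 229, 201 and 165 FPKM in *bli ire1a*, 202, 251 and 241 in *bli ire1b*, 174, 248 and 254 in *bli*, and 58.5, 94.1 and 82.8 in WT. The adjacent ABC transporter genes AT3G21080 and *ABCG15* were weak, with *bli* means of 3.67 and 4.12 FPKM. AT3G21080 had 6.41, 4.45 and 3.96 FPKM in *bli ire1a*, 4.23, 3.61 and 3.20 in *bli ire1b*, 4.38, 3.56 and 3.05 in *bli*, and 0.619, 2.02 and 0.572 in WT, where replicate 2 stood above the others. AT3G63380, a P-type ATPase gene, is given with the comparison of the double mutants.

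The redox and stress group held *SAG21*, a late embryogenesis abundant protein of the oxidative stress response. *SAG21* had the highest mean over the mutants, although AT3G15450 averaged more in *bli ire1a*, *bli* and WT. It had 768, 585 and 614 FPKM in *bli ire1a*, 1247, 1189 and 1133 in *bli ire1b*, 804, 813 and 954 in *bli*, and 368, 251 and 347 in WT. The thioredoxin-fold genes AT4G15700 and AT4G15660, with 3 tested genes between them on chromosome 4, averaged 33.3 ± 1.37 and 6.21 ± 1.04 FPKM in *bli ire1a*, 32.8 ± 3.28 and 4.96 ± 1.91 in *bli ire1b*, 41.3 ± 4.25 and 5.99 ± 1.02 in *bli*, and 13.6 ± 5.2 and 1.70 ± 1.25 in WT. AT3G22235, a cysteine-rich transmembrane protein gene, varied widely between replicates. It had 46.3, 84.8 and 70.8 FPKM in *bli ire1a*, 83.0, 48.4 and 61.6 in *bli ire1b*, 28.6, 24.6 and 72.2 in *bli*, and 24.3, 18.9 and 12.0 in WT. The lowest *bli* library was only 1.01 times the highest WT library. A stretch of 344 bases of AT3G22235 is 99.4% identical to *PCC1* (AT3G22231), which averaged 32.5 FPKM in *bli ire1a*, 26.7 in *bli ire1b*, 29.0 in *bli* and 13.1 in WT, so the values of both genes are uncertain.

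The remaining genes included *ENDO2*, AT4G04223 and AT1G63055, which stood furthest above WT and were followed by AT2G33830. *ENDO2*, an endonuclease gene, had 1.90, 3.42 and 2.67 FPKM in *bli ire1a*, 3.28, 2.06 and 3.15 in *bli ire1b*, 3.40, 2.72 and 3.03 in *bli*, and 0.118, 0.369 and 0.340 in WT, which made its means 9.67, 10.3 and 11.1 times the WT mean. It overlaps AT1G68300 over 108 bases and the non-coding AT1G08973 over 1765 bases on the opposite strand. AT4G04223, annotated as a non-coding RNA, had 76.2, 83.2 and 69.5 FPKM in *bli ire1a*, 87.3, 82.5 and 90.5 in *bli ire1b*, 83.3, 98.9 and 88.0 in *bli*, and 10, 11 and 12.8 in WT. The 9 mutant libraries of AT4G04223 stood together, 6.77 to 8.0 times above WT by their means, and far from every WT library. Because 350 of its bases are 99.1% identical to AT3G56210, reads may be shared between them; AT3G56210 averaged 25.9, 31.1, 33.4 and 17.1 FPKM in *bli ire1a*, *bli ire1b*, *bli* and WT. AT1G63055 was listed at 0 FPKM in all 3 WT libraries and had 1.71 to 3.09, 2.0 to 5.55 and 2.66 to 2.78 FPKM in *bli ire1a*, *bli ire1b* and *bli*. It lies on the same strand as AT1G63057 with 1005 shared bases, and that gene was also listed at 0 in WT, with means of 0.937, 1.80 and 3.17 FPKM in the mutants in that order. AT1G33790, a jacalin lectin gene, averaged 12.1 ± 3.19, 15.7 ± 2.16, 16.1 ± 4.2 and 3.46 ± 0.258 FPKM, and the small mitochondrial import gene *TOM7-2* had 17.4, 53.9 and 16.6 FPKM in *bli ire1b*, where replicate 2 was more than 3 times the others, against 5.63 to 11.5 FPKM in WT.

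The double mutants kept most of the *bli* level by the rule, and within that bound they differed. The mean of *bli ire1a* was a median of 87.8% of the *bli* mean (75.1% to 177%) and that of *bli ire1b* 103% (75.3% to 190%). Both double mutants were above *bli* in 9 genes, only *bli ire1b* in 29, only *bli ire1a* in 4 (*XTH33*, *STP1*, *XTH15* and AT4G15660), and both were below it in 24. In 38 genes the *bli* libraries overlapped those of both double mutants, and the share of all tested genes that did so was not computed. Among all 848 genes with a *bli* mean of at least 2 FPKM and at least 2 times WT, the medians were 57.9% in *bli ire1a* and 77.8% in *bli ire1b*. At least 0.75 times the *bli* mean was kept by 185 of these in *bli ire1a*, by 459 in *bli ire1b* and by 132 in the 2 double mutants alike, and the 66 genes described here make up 7.78%. The *bli ire1a* condition was the strictest: 89 further genes met every other condition and missed only this one, against 8 for *bli ire1b*.

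**Figure D3:**
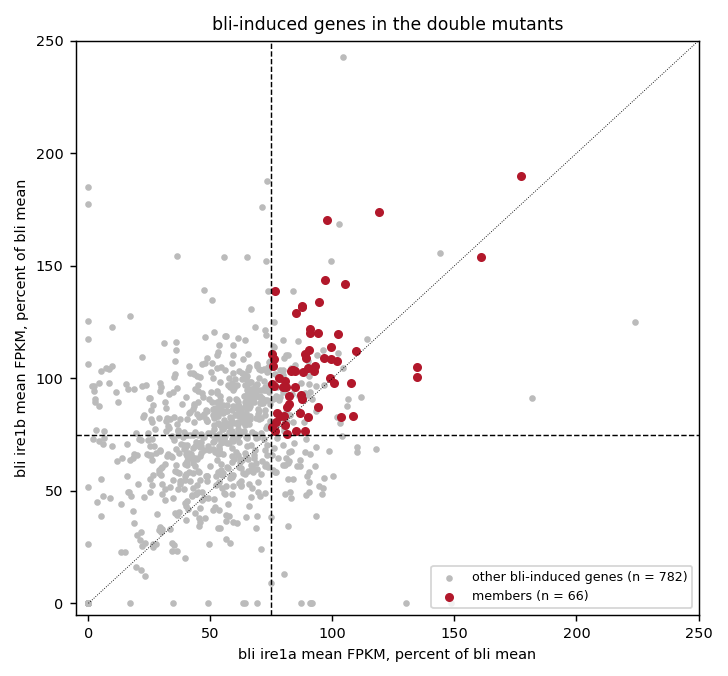
Mean FPKM as a percentage of the *bli* mean in *bli ire1a* (x axis) and *bli ire1b* (y axis) for the 848 *bli*-induced genes, with the 66 members in red, the dashed lines at 75% and the dotted line where both are equal. Most points of either colour lie above the dotted line, and the members fill the upper right corner by the choice of the genes.

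A few genes departed from *bli* in both double mutants without overlap. AT3G20395, a RING/U-box gene of the class that marks proteins for degradation, had 22.5, 17.7 and 16.2 FPKM in *bli ire1a*, 20.3, 20.2 and 20.1 in *bli ire1b*, 6.27, 11.2 and 14.4 in *bli*, and 4.25, 3.88 and 4.92 in WT. It was the only gene of the 66 in which all 6 double-mutant libraries lay above all 3 *bli* libraries. All 6 lay below all 3 *bli* libraries in 5 genes, which were *IOS1*, AT1G51850, AT5G25440, the resistance gene AT3G44400 and AT4G15700. Over all tested genes, every *bli ire1a* library lay below every *bli* library in 16.9% and above in 15.8%. Among the 66 this was seen in 14 (21.2%) and 1 (1.52%), counts that the rule itself bounds. For both double mutants together the share of all tested genes was not computed, so those counts are descriptions only.

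The thresholds cut through a continuous range. Just inside the *bli ire1a* bound of 0.75 were AT4G09420 (0.751) and AT1G33790 (0.753), and just outside AT5G53730 (0.746) and AT1G52200 (0.745). For *bli ire1b* the nearest inside were *FRK1* (0.753) and AT3G15450 (0.763), and outside *FRO5* (0.743) and AT5G02720 (0.733). The bound of 2 times WT admitted *ORA59* (2.01) and AT3G44400 (2.01) in *bli ire1a* and left out *CYP71B23* and *YSL3* (both 2.0 after rounding). In *bli ire1b* it admitted *XTH15* (2.01) and *TRFL8* (2.02) and left out AT1G28330 (1.95) and AT2G30930 (1.82), and in *bli* it admitted *XTH15* (2.06) and *HR3* (2.15) and left out *COX19-1* (1.97) and AT2G13550 (1.86). The *bli* minimum of 2 FPKM left out AT1G03580 at 1.89 and AT3G60961 at 1.86, below AT1G63055 at 2.72 and AT1G51620 at 2.91. In the order of single libraries, the lowest mutant library was 1.01 times the highest WT library for AT3G22235 and 1.07 times for AT2G15880, against 0.962 for AT4G02170 and 0.925 for *ELF4-L1* outside.

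The double mutants were then compared with each other. The rule used both of their means, each with a floor at 0.75 times *bli* and 2 times WT, so the test is not independent of the choice of the genes and its p-values and counts over the 66 are descriptive. In a limma model of log2(FPKM + 0.1) over 20645 genes and all 4 genotypes, 2.57% of tested genes passed as higher in *bli ire1a* and 1.06% as lower, against *bli ire1b*, with a 2-fold change in either direction and an unadjusted p up to 0.05. None of the 66 genes passed in either direction (0 higher and 0 lower), nor with the p adjusted by the Benjamini-Hochberg method (0 higher and 0 lower, where 1.74% and 0.736% of tested genes passed). The rule largely fixed these counts: a 2-fold difference needs the higher double mutant at 150% of the *bli* mean or more, which 4 genes reached in *bli ire1b* and 2 in *bli ire1a*. At an unadjusted p up to 0.05 from limma with no fold cutoff, 0 of the 66 were higher and 16 (24.2%) lower in *bli ire1a*, where 15.4% and 13% of tested genes passed. Without the fold cutoff, at an adjusted p up to 0.05, 7.45% of tested genes were higher and 5.3% lower, and of the 66 genes 0 were higher and 6 lower (9.09%). Every *bli ire1a* library was below every *bli ire1b* library in 18 of the 66 genes (27.3%), where the share of tested genes was 16.9%, and above in 2 genes (3.03%), *XTH15* and AT3G15450, where it was 17.5%. The median difference was -0.19 over the 66 genes and 0.00 over all tested genes, and the mean was lower in *bli ire1a* in 52 genes and higher in 14. The limma p-values set the difference of 2 means against a residual spread. That spread is estimated from all 12 libraries, with information shared across genes. A single gene has a smallest exact permutation p of 0.1 with 3 libraries against 3.

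The 6 genes that passed as lower in *bli ire1a* against *bli ire1b* had different roles. *SAG21*, whose libraries are given above, differed most, by -0.87 on the log2 scale (standard error 0.14, adjusted p = 0.00323 from limma). AT5G61520, a sugar transporter of the major facilitator family, had 21.0, 20.4 and 20.5 FPKM in *bli ire1a*, 31.2, 32.4 and 29.1 in *bli ire1b*, 20.7, 22.9 and 26.9 in *bli*, and 10.2, 8.95 and 8.82 in WT. The difference between the double mutants was -0.58 (standard error 0.10, adjusted p = 0.00326 from limma), and it is visible as tight and separate groups of libraries. AT3G63380, the P-type ATPase gene, had 5.18, 3.12 and 4.31 FPKM in *bli ire1a*, 6.63, 5.87 and 9.45 in *bli ire1b*, 4.62, 3.99 and 4.29 in *bli*, and 2.26, 2.11 and 1.57 in WT. It differed by -0.79 (standard error 0.22, adjusted p = 0.0394 from limma). AT4G09420, a TIR-type resistance gene, had 8.39, 8.71 and 6.26 FPKM in *bli ire1a* against 10.9, 11.4 and 12.1 in *bli ire1b*, a difference of -0.57 (standard error 0.14, adjusted p = 0.0221 from limma). AT3G23550, the MATE efflux gene, had 33.2, 24.4 and 23.0 FPKM in *bli ire1a* against 33.9, 49.6 and 38.8 in *bli ire1b*, a difference of -0.60 (standard error 0.15, adjusted p = 0.0272 from limma). AT2G43140, a bHLH transcription factor gene, had 24.3, 15.6 and 17.2 FPKM in *bli ire1a* against 26.7, 30.3 and 27.4 in *bli ire1b*, a difference of -0.59 (standard error 0.17, adjusted p = 0.0476 from limma). In all 6 genes every *bli ire1a* library lay below every *bli ire1b* library.

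**Figure D4:**
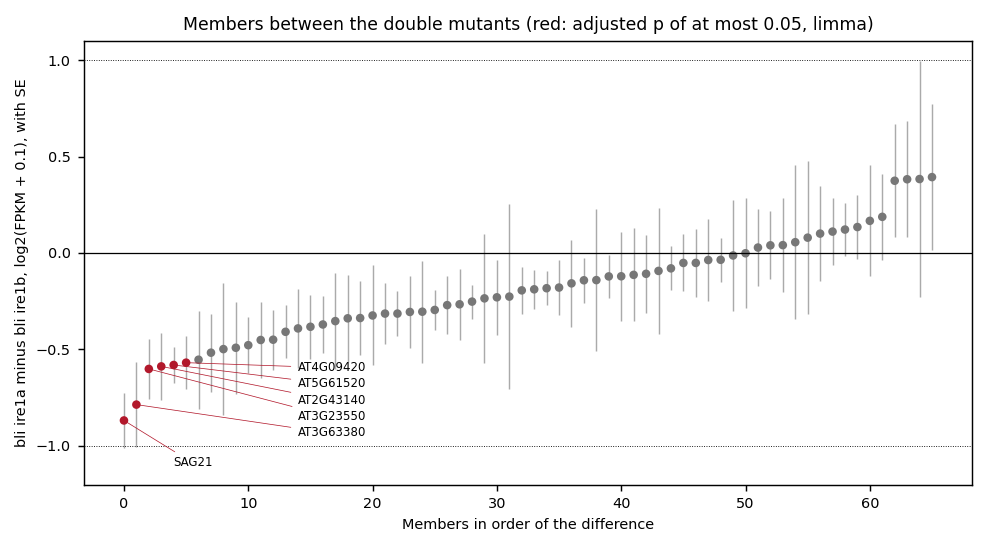
Difference of *bli ire1a* minus *bli ire1b* on the log2(FPKM + 0.1) scale for each of the 66 genes in ascending order, with standard errors from limma and dotted lines at a 2-fold difference. The 6 genes in red have an adjusted p of at most 0.05, from -0.87 for *SAG21* to -0.57 for AT4G09420, and no gene reaches the dotted lines.

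Across the alternative settings the calls of *SAG21* and AT5G61520 held in all 21 in which they were refitted, with adjusted p between 0.000855 and 0.0177 and between 0.00178 and 0.0168 from limma. The same genes were refitted without applying the rule again, so a call that held is not independent support. The others did not hold throughout: the adjusted p reached 0.0756 for AT4G09420 (without *bli ire1b* replicate 3), 0.101 for AT3G23550 (with only the double mutants in the fit), 0.141 for AT3G63380 and 0.166 for AT2G43140 (both without *bli ire1a* replicate 2). The call of AT4G09420 was lost without *bli ire1a* replicate 3 or any 1 library of *bli ire1b*, that of AT3G23550 without replicate 2 or 3 of either double mutant, and that of AT3G63380 without any 1 *bli* library, *bli ire1a* replicate 2 or 3, or *bli ire1b* replicate 1 or 3. AT2G43140 lost its call without WT replicate 1, any 1 *bli* or *bli ire1b* library, or *bli ire1a* replicate 2 or 3. Over all 21 alternatives the call held in 16 for AT4G09420, 16 for AT3G23550, 12 for AT3G63380 and 7 for AT2G43140, the others including fits with no filter on low values or with only the double mutants. No alternative turned the direction of the 6 differences. The green-shoot and root marker sums given above also differ between the double mutants, and their part in these differences was not tested.

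The known UPR genes were compared with WT in the same way. All 9 mutant libraries lay above all WT libraries in 18 of 21 canonical UPR genes, against 9.68% of tested genes. The exceptions were *SARA1A* and the listed genes *IRE1A* and *IRE1B*, which carry insertions in the double mutants. Of these 21 canonical UPR genes, 4 were higher in *bli ire1a* than in WT past both cutoffs of the same limma model, 11 in *bli ire1b* and 10 in *bli*, against 1.79%, 3.32% and 4.4% of all tested genes. As a median, their log2 difference from WT was 0.55 for *bli ire1a*, 1.02 for *bli ire1b* and 0.90 for *bli*. *BIP3*, an ER chaperone gene that marks the UPR, averaged 4.67 ± 0.652 FPKM in *bli ire1a*, 53.6 ± 3.62 in *bli ire1b*, 72.8 ± 2.96 in *bli* and 0.664 ± 0.626 in WT (SD, n = 3 each). Other chaperone genes of the BIP family kept more of the *bli* level: *BIP1* (AT5G28540) averaged 186 ± 12.7, 249 ± 9.79, 244 ± 8.14 and 115 ± 15.6 FPKM in *bli ire1a*, *bli ire1b*, *bli* and WT, and *BIP2* (AT5G42020) 162 ± 10.3, 221 ± 8.54, 203 ± 11.5 and 91.3 ± 8.66 FPKM (SD, n = 3 each). Their *bli ire1a* means were 76.4% and 80.1% of *bli* but below 2 times WT, so neither gene is in the set. These genes are close copies of each other, and the counting may split their reads. The other lists examined were Polycomb targets, seed storage and oil body genes, abscisic acid and cold response genes, defence and senescence genes, mitochondrial and oxidative stress genes, heat shock genes, and the root and green-shoot markers. Of these, 6 of 12 abscisic acid and cold response genes were lower than WT in *bli ire1a* and 8 in both *bli ire1b* and *bli*, against 2.18%, 7.63% and 5.71% of tested genes, and 3 of 6 root markers were lower in *bli ire1b*. Among 15 tested Polycomb targets, *bli ire1a* had 5 higher and 0 lower calls, while *bli ire1b* and *bli* each had 6 higher and 4 lower ones (*SEP4*, *FLC*, *MAF4* and *MAF5*), beside the same shares of tested genes. The lists are short, and the absence of members from all of them (0 genes) is not read as a result.

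The 66 genes lay on all 5 chromosomes, 18 on chromosome 1, 15 on chromosome 2, 14 on chromosome 3, 7 on chromosome 4 and 12 on chromosome 5. On chromosome 2 this was 22.7% of the genes, against 15.2% of tested genes, and on chromosome 5 18.2% against 23.3%. Within 2 Mb of *BLI* (chr3:8662413-8668040 in TAIR10.1) there were 6 (9.09%), against 3.63% of tested genes and 4.06% of the *bli*-induced genes. All 6 lay on the side of lower coordinates: AT3G23550 at 212 kb, *OASA2* at 697 kb, AT3G22235 at 807 kb, *ABCG15* at 1267 kb, AT3G21080 at 1272 kb and AT3G20395 at 1549 kb. They include AT3G20395 and AT3G22235, with the highest means relative to *bli* in *bli ire1a* (177% and 161%). The share depended on the window. Within 0.5 Mb of *BLI* there was 1 gene (1.52% against 0.826% of tested genes) and within 1 Mb 3 (4.55% against 1.75%). At 5 Mb there were 7 (10.6% against 7.45%). Within 2 Mb of *IRE1A* on chromosome 2 there were 5 (7.58% against 2.92%), and within 2 Mb of *IRE1B* on chromosome 5 there was 1 (1.52% against 3.27%). These shares are descriptions without a test, and what links position and level was not tested. Beside *IOS1* with AT1G51850 and AT4G15660 with AT4G15700, 3 pairs of members were direct neighbours among tested genes, AT2G15880 with *MEE14*, AT3G21080 with *ABCG15*, and *HR3* with *HR4*.

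The membership of the set depended on single libraries. When the rule was applied again with 1 of the 12 libraries removed at a time, between 49 genes (without *bli ire1a* replicate 1, 44 of them members) and 90 genes (without WT replicate 3, 59 of them members) met it. Without *bli* replicate 1 there were 51 genes, 50 of them members. In all 12 of these sets 22 of the 66 genes remained, and 44 were lost in at least 1. With group medians in place of means there were 64 genes, of which 49 were shared.

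**Figure D5:**
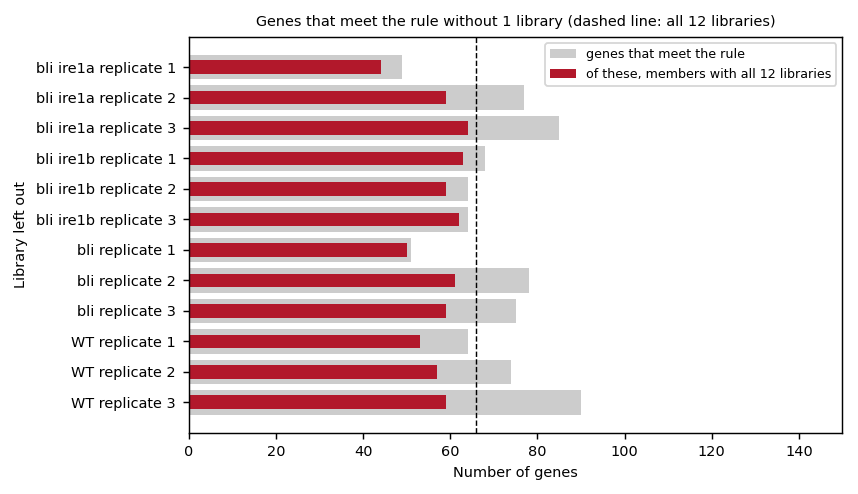
Number of genes that meet the rule after leaving out the library named on the y axis (grey bars) and how many of these are among the 66 (red bars), with the dashed line at 66. The fewest genes remain without *bli ire1a* replicate 1 (49) and the most without WT replicate 3 (90).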

How the data were processed

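RNA-Seq was done on whole *Arabidopsis* seedlings, with 3 libraries per genotype. The authors used SeqPrep and Sickle for read quality, TopHat with the TAIR10 genome for alignment and Cuffdiff for their own tests. They deposited 1 table, which holds an FPKM value for each gene in each library. The submitters' processing notes instead name Bowtie 0.12.2 and a mouse genome build. The program that wrote the FPKM values and its use of strand are not given in the sources used here, so overlapping genes on opposite strands cannot be told apart. The deposited FPKM values are relative to transcript length and library size. Read counts are unknown, so no counting error is given. The FPKM worth of a single fragment, read from the lowest values, was 0.566 to 1.04 times that of WT replicate 1. The number of value columns left unused was 0. The label gives 12 days for the seedlings, whereas the methods state an older age.

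Means were taken on the deposited values. log2(FPKM + 0.1) of the 20645 genes with a mean of at least 0.5 FPKM was fitted with limma 3.58.1 in R 4.3.3 (lmFit, eBayes with trend, 4 genotypes, 8 residual degrees of freedom, no block), since Cuffdiff needs alignments. A fold change on this scale understates that of weak genes. Calls used a fold of at least 2 or at most 0.5 with unadjusted p of at most 0.05, the cutoffs in the methods, and Benjamini-Hochberg adjusted p over all tested genes. The steps were tested on simulated data. Tested alternatives were 22 for the rule and 23 for the model.

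The members, the gene lists and the motifs were chosen with earlier results of these data known. Roles were assigned by hand after the members were seen. Genes were named by a rule: the 10 largest ratios to WT, the 10 highest mutant means, adjusted p of at most 0.05 between the double mutants, neighbours, and the nearest genes at each threshold. Others, chosen after their values were seen, illustrate a role or a position. Names, positions and upstream sequences came from RefSeq TAIR10.1, a later release than TAIR10. Near-identical stretches are of at least 100 bases at 98% identity or more.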

Additional observations from a re-analysis of the deposited data

Results flagged for a closer look

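In 6 genes the change against WT differed between the double mutants by a direct test of *bli ire1a* minus *bli ire1b* in limma, with adjusted p of at most 0.05 over all tested genes. These are 9.09% of the 66, with 0 in the other direction, where 5.3% of tested genes were lower and 7.45% higher. The choice of the genes used the means of both double mutants, so these p-values and counts are descriptive. The 848 *bli*-induced genes leaned the same way. Their median share of the *bli* mean was lower with *IRE1A* mutated (57.9%) than with *IRE1B* mutated (77.8%). The shared direction of the 6 genes is therefore not read as a trait of the set. On the log2(FPKM + 0.1) scale the difference was -0.87 for *SAG21*, -0.79 for AT3G63380, -0.60 for AT3G23550, -0.59 for AT2G43140, -0.58 for AT5G61520 and -0.57 for AT4G09420. All 6 were raised less in *bli ire1a*, with every library of *bli ire1a* below every library of *bli ire1b*. Relative to *bli*, *SAG21* averaged 76.5% in *bli ire1a* and 139% in *bli ire1b*, and AT5G61520 87.7% and 131%. Groups of 3 libraries were too small to single out a library.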

How the results depend on the processing

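The number of genes that meet the rule moved most with its own thresholds, to 194 with means of at least 1.5 times WT, 10 with 3 times WT, 120 with 0.6 times *bli* and 24 with 0.9 times *bli*. It was 49 to 90 when libraries were left out in turn, 81 with upper-quartile scaling and 87 with quantile normalization. Against *bli ire1b*, 531 genes passed as higher and 218 as lower in *bli ire1a* as reported, 474 to 699 and 209 to 241 with libraries left out, 248 and 124 with a pseudocount of 1, 1538 and 1095 at adjusted p without a fold cutoff, and 329 lower with no filter on low values. The members called were 0 in either direction in every leave-one-out fit, and 6 lower only at adjusted p without the fold cutoff. Over the 9 gene lists, 13 genes were higher and 8 lower than WT in *bli ire1a*, 25 and 21 in *bli ire1b* and 26 and 14 in *bli*. With libraries left out these were 12 to 14 and 5 to 10, 25 to 27 and 17 to 22, and 24 to 27 and 14 to 18, where the 5 came without WT replicate 3 or without *bli ire1a* replicate 1. In *bli ire1a*, 8 were higher with a pseudocount of 1, 26 higher at adjusted p without the fold cutoff and 4 lower at adjusted p with it, and in *bli* 22 were lower at adjusted p without the fold cutoff. The cause of these moves was not tested.

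The replicate number was also tried as a block. The deviations of same-numbered libraries of different genotypes were at most weakly correlated (-0.11 to 0.09, 0 of 18 pairs over 0.1). Their median correlation was 0.05, against -0.02 for libraries of other numbers. These values do not settle whether the numbers pair the libraries. With the replicate block, 557 genes passed as higher and 218 as lower in *bli ire1a* against *bli ire1b*, the members called were 0 and 0, the list calls were 13 and 7, 26 and 21, and 27 and 14, and of the 6 genes only AT2G43140 lost its call (adjusted p = 0.0637 from limma). Depth limits the weak genes: a value near 2 FPKM, as in *BGLU45* or AT1G63055, carries an unknown counting error.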

Other observations

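Genes of low sugar and darkness outside the set were examined because the carbon genes of the set were high, so this list was chosen after seeing the data and is given without a test. In 6 of 10 listed genes all 9 mutant libraries were above all WT libraries, against 9.68% of tested genes. *SEN1*, a senescence- and darkness-induced gene, averaged 237 ± 40 FPKM in *bli ire1a*, 380.1 ± 18.8 in *bli ire1b*, 463 ± 94.3 in *bli* and 79.0 ± 46.5 in WT (SD, n = 3 each). *ASN1*, the asparagine synthetase induced in the dark, averaged 90.8 ± 16.9, 114 ± 2.37, 148 ± 42.9 and 32.0 ± 14.4 FPKM in that order, and *DIN10* 278 ± 55.4, 363 ± 41.7, 440.3 ± 113 and 92.2 ± 45.2 FPKM. *DRM1* (AT1G28330), the relative of AT2G33830, averaged 708 ± 65.1, 550.1 ± 92.2, 688 ± 152 and 281 ± 130 FPKM and missed only the bound of 2 times WT in *bli ire1b*. *TPS8*, *TPS9*, *TPS11* and *BGLU30* of this list did not have all mutant libraries above WT. *TPS11* averaged 51.6 ± 8.45 FPKM in *bli ire1a*, 26.4 ± 0.524 in *bli ire1b*, 50.7 ± 2.84 in *bli* and 30.6 ± 17.1 in WT.

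Early immune response genes outside the set were listed in the same way, beside *FRK1* and *IOS1*. In 1 of 8, *WRKY29*, all mutant libraries were above all WT libraries, against 9.68% of tested genes, so this count is not read as a result. *WRKY29* averaged 14.8 ± 0.682, 21.3 ± 2.03, 22.4 ± 4.15 and 4.77 ± 1.92 FPKM in *bli ire1a*, *bli ire1b*, *bli* and WT (SD, n = 3 each). *CYP71A12*, an enzyme gene of camalexin synthesis, averaged 7.80 ± 2.76, 6.10 ± 2.17, 6.0 ± 2.34 and 11.9 ± 2.47 FPKM, and *WRKY33* 66.2 ± 24.5, 71.3 ± 13.9, 129 ± 10.8 and 96.4 ± 52.7 FPKM.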
